A study of Mus musculus with 8 samples.

Results

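Carbonic anhydrases are enzymes that interconvert carbon dioxide and bicarbonate, and 10 mouse genes of this family (Car2, Car3, Car4, Car5b, Car6, Car8, Car9, Car12, Car13 and Car14) were followed in brown adipose tissue of mice labelled Prdm16 KO. They were taken by gene name from the arrays, where they had 12 probes, out of 31896 genes named by 39429 non-control probes. Of these, 9 probes of 7 genes (Car2, Car3, Car4, Car5b, Car8, Car13 and Car14) were bright enough to be tested, and Car6, Car9 and Car12 were too dim. The set was chosen by the measured 6-week ratio of Car14, which had been seen to fall in the knockout, so the 6-week values below are a description and support nothing. The 11-month ratios were not part of that rule and were tested, in a fit that pools the spread of both ages. The members were, however, chosen with earlier results of these data known.

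The study compared Prdm16 KO with WT mice on two-colour Agilent arrays. Animals were 6-week-old (4 arrays) or 11-month-old (4 arrays), each array holding one knockout and one wild-type RNA of the same age. PRDM16 is a zinc-finger regulator of transcription known for its part in the identity of brown fat. The sources used here do not give the allele, any Cre driver, the deleted part of the gene or whether animals were pooled. Each age was run as a batch of its own, so age and batch cannot be told apart in any comparison between them.

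Carbonic anhydrases differ mainly in where they sit. CAR2, CAR3 and CAR13 are cytosolic, CAR5B is mitochondrial, CAR4 is anchored to the outer face of the membrane, CAR9, CAR12 and CAR14 span it, CAR6 is secreted, and CAR8 lacks the catalytic activity of the others. In fat cells the bicarbonate they supply is a substrate of the carboxylases that start lipid synthesis and refill mitochondrial intermediates, and Car3 is known as one of the most abundant transcripts of fat and of slow skeletal muscle.

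Each gene was read through 60-base probes, and because family members resemble one another the probes were compared with each other first. The longest stretch shared by probes of different carbonic anhydrase genes was 11 bases, and the probes of the 5 members that moved most shared at most 7 bases with any other family probe, except that of Car14, which shared 11 with Car9. The 30-base windows below hold that stretch, in capitals, in the orientation of the scanner file.
Car14 probe, shared with Car9: tgaggagattccctgtccTCATGCTTGGTt
Car9 probe, shared with Car14: gaatgcaccaTCATGCTTGGTcatcccaat
Car5b probe, shared with Car2: tcctactcttgtAAAGCAAagaccgggaga
Car2 probe, shared with Car5b: aacaaaatgtgaAAAGCAAgacccaggtgt
Car3 probe, shared with Car13: tttgacatgatcTCACCCAgaagcatgaat
Car13 probe, shared with Car3: ctgttttttctgTCACCCAttaaaaagatg

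On the mm9 build the Car14 probe lies at chr3:95701859-95701918 on the minus strand and the Car5b probe at chrX:160416946-160417005 on the minus strand. The Car13, Car3 and Car2 probes lie on the plus strand of chromosome 3, at chr3:14662332-14662391, chr3:14871781-14871840 and chr3:14900206-14900265. Which exon or untranslated region each probe covers was not analysed here.

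RefSeq's promoter table (GRCm38.p6) matched 6 of the 10 members, and the 250 bases before the start are printed for Car14 and Car5b, the members with the largest fall and the largest rise at 11 months. Capitals mark CG dinucleotides. The Car14 stretch is chr3:95904686-95904935 on the minus strand, with 10 CG and 62.0% G and C, and the Car5b stretch is chrX:164028011-164028260 on the minus strand, with 12 CG and 63.6% G and C.
Car14 promoter: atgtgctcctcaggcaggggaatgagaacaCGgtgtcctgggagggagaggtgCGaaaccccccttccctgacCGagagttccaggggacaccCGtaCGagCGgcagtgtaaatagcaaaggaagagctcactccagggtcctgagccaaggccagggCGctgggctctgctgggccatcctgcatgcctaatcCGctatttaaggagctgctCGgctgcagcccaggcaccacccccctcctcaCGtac
Car5b promoter: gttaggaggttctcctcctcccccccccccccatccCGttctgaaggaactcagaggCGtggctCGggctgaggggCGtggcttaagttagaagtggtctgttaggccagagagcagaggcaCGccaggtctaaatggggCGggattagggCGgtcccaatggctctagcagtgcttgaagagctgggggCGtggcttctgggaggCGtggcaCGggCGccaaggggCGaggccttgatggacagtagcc
Of 32851 promoter windows of this length, 62.2% held fewer CG than that of Car14 and 66.5% fewer than that of Car5b, and the median window held 6. Searched on both strands, the nuclear receptor half-site AGGTCA occurred in 14.0% of windows and the letters CCCNNGGG, the core of the early B-cell factor motif, in 11.8%. Neither was found in these windows of Car14 and Car5b, which says only that these letters are absent there.

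Across the series each array carried 43020 non-control spots, 61.2 to 68.2% of them well above background, with no saturated spot. The Prdm16 probe was lower in the knockout by 0.58 ± 0.15 (SE) on the log2 scale at 6 weeks and by 0.50 ± 0.15 at 11 months (limma adjusted p = 0.0372). The 11-month call held in 11 of 19 alternative settings, with adjusted p from 0.0523 to 0.155 without 6-week replicate 1 or 4 or 11-month replicate 1, 3 or 4. It was lost as well under median centring (-0.27, adjusted p = 0.35), without a dye term (0.077) and without the 3 arrays of extreme muscle signal named below (0.145). Whether the probe lies in the deleted part is not given. Prdm16 stood above background in all 4 knockout arrays of each age. Of 18 brown adipocyte markers all were measured, 16 of them well above background in every channel, as the tissue label states. All 44 skeletal muscle markers were also measured, and their median ratio per array ran from -2.67 to 1.90. The arrays that stood farthest out were replicates 2 and 4 at 6 weeks (-2.67 and -2.60) and replicate 4 at 11 months (1.90), and a fit without those 3 arrays is given beside many of the results below.

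Car14, a membrane-spanning enzyme with its active site outside the cell, was lower in the knockout on every array. Its log2 ratios of knockout over wild type were -2.92, -1.78, -2.19 and -1.87 in replicates 1 to 4 at 6 weeks, the values that chose the family. At 11 months they were -1.73, -2.80, -1.53 and -1.71. Replicate 2 stood apart at the older age and the other three lay close together.

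Fitted over the arrays, Car14 at 6 weeks was -2.19 ± 0.24 (SE, n = 4), 4.57-fold lower. At 11 months it fell by 1.94 ± 0.24 on the log2 scale (n = 4), which is 3.85-fold, with an adjusted p of 0.000779. The normalized log2 intensity at 11 months was 10.99 ± 0.54 (SD, n = 4) in wild type and 9.05 ± 0.44 in the knockout, and the lowest wild-type value (10.34) lay above the highest knockout value (9.56). In these bulk samples fewer cells of a type and less RNA per cell cannot be told apart.

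Car5b, the mitochondrial enzyme, moved the other way. Its ratios were 2.14, 1.65, 1.95 and 1.41 at 6 weeks and 2.96, 3.14, 1.90 and 1.75 at 11 months, above zero on all 8 arrays. Replicates 1 and 2 were the high ones at 11 months. The fit gave 1.79 ± 0.21 at 6 weeks, 3.45-fold higher in the knockout. At 11 months Car5b rose by 2.44 ± 0.21, which is 5.42-fold, with an adjusted p of 0.000153. Wild-type levels at 11 months ran from 8.85 to 9.28 and knockout levels from 10.88 to 11.99, with no overlap. The difference between the ages, 0.65 ± 0.30, did not pass (adjusted p = 0.171), and passed with a dye term for each age (adjusted p = 0.0281).

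Car2, a fast cytosolic enzyme found in many cells and abundant in red cells, was lower in the knockout on all 8 arrays. Its ratios were -1.76, -1.09, -0.64 and -1.09 at 6 weeks and -1.61, -1.84, -0.98 and -1.97 at 11 months. The fitted value at 6 weeks was -1.15 ± 0.20. At 11 months Car2 fell by 1.60 ± 0.20, 3.03-fold, with an adjusted p of 0.000777. The groups did not overlap at either age: wild type spanned 10.76 to 11.21 and knockout 9.45 to 10.12 at 6 weeks, and 9.97 to 10.47 against 8.37 to 8.99 at 11 months. The age difference was -0.45 ± 0.28 (adjusted p = 0.302), and it passed with the scanner software's log ratio (-1.07, adjusted p = 0.0153) and with the deposited values (-0.82, adjusted p = 0.0206). Of 9 measured red cell markers 0 rose and 1 fell at 11 months (Bpgm, -0.30, adjusted p = 0.0099), beside 17.9% and 16.8% of all genes. The median of the 9 was 0.10. The part of red cells in the Car2 ratio was not tested.

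**Figure D1:**
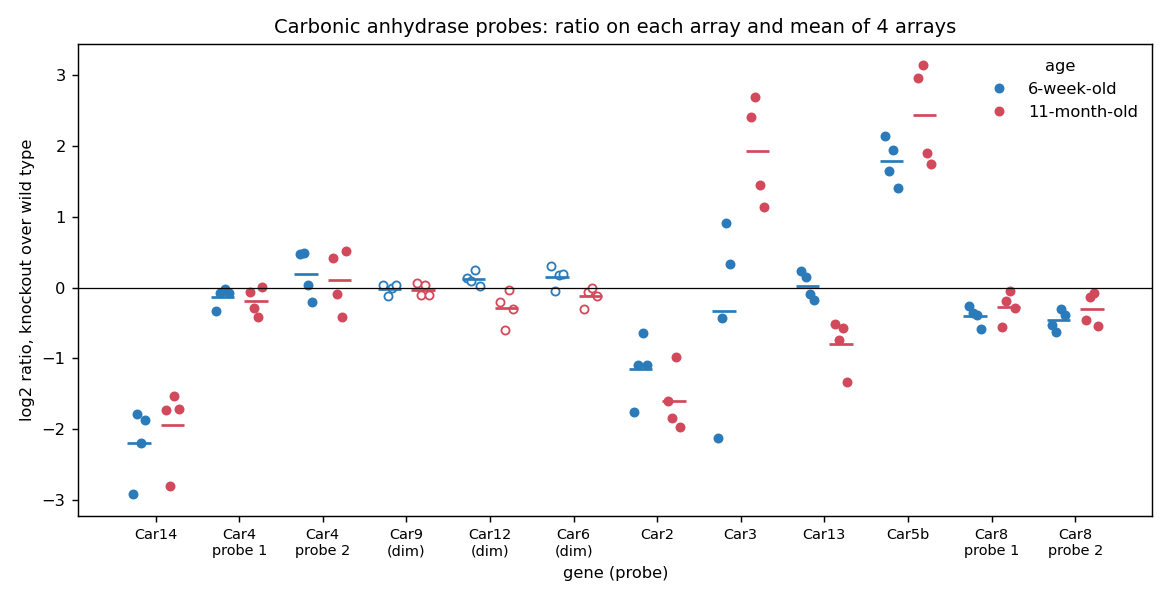
Log2 ratio of knockout over wild type for the 12 member probes, one point per array and a bar at the mean of the 4 arrays of each age, with dim probes as open points. Car14 and Car2 lie below zero and Car5b above it on every array, while Car3 straddles zero at 6 weeks and lies between 1.14 and 2.70 at 11 months.

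Car3, the cytosolic enzyme abundant in fat and muscle, was the member whose ratio differed most between the ages. At 6 weeks its ratios were -2.13, -0.44, 0.91 and 0.34, on both sides of zero. At 11 months they were 2.41, 2.70, 1.45 and 1.14, all higher in the knockout. The arrays with knockout RNA in Cy5 (replicates 3 and 4 at 6 weeks, 1 and 2 at 11 months) read higher than the others of their age, and the fitted dye term was 0.79 (adjusted p = 0.0501). After taking that term out the 11-month ratios were 1.62, 1.91, 2.24 and 1.93, and the 6-week ratios -1.34, 0.36, 0.12 and -0.45.

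The fit gave Car3 at 6 weeks as -0.33 ± 0.25. At 11 months Car3 rose by 1.93 ± 0.25, 3.80-fold, with an adjusted p of 0.000945. Levels at that age, which are not dye-adjusted, were 18.39 ± 0.13 (SD, n = 4) in the knockout and 16.46 ± 0.78 in wild type. Wild-type levels ran from 15.70 to 17.14, below every knockout value. They split by dye, with 15.89 and 15.70 in Cy3 (replicates 1 and 2) and 17.12 and 17.14 in Cy5 (replicates 3 and 4). The ratio differed between the ages by 2.26 ± 0.36 (adjusted p = 0.00643). This call was lost without a dye term (2.26, adjusted p = 0.0552) and without the 3 arrays of extreme muscle signal (2.48, adjusted p = 0.0633).

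Because Car3 is also a muscle transcript, its ratios were set beside the muscle markers. On 11-month replicates 1 to 3 the muscle median was -0.49, -1.13 and -0.23 while Car3 was above zero, and on replicate 4 the muscle median was 1.90. Without the 3 extreme arrays Car3 at 11 months was 1.87 (adjusted p = 0.0144). Of the 44 muscle markers 0 passed at 6 weeks, 0 at 11 months and 0 for the difference in the limma fit, with 2, 0 and 1 at an unadjusted p under 0.05. Over all genes 16.2%, 34.7% and 18.2% passed. At 11 months Ckm, the muscle creatine kinase, was -0.16 ± 0.94 and Myh7, the slow myosin heavy chain, 1.06 ± 1.09. On replicates 1 to 4 of that age Myh7 read -2.40, 0.85, 0.68 and 5.12. On replicates 2 and 3 it thus lay above zero while the median of the 44 markers lay below. At 6 weeks, where replicates 2 and 4 had muscle medians of -2.67 and -2.60, Car3 was -0.44 and 0.34. The part of muscle in the Car3 ratio was not tested.

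Fat cell genes moved on the same 11-month arrays, where 17.9% of all genes were called higher and 16.8% lower. Of 15 general adipocyte markers 11 rose and 2 fell, with Adipoq (adiponectin) at 1.49 ± 0.08 and Cfd (adipsin) at 4.54 ± 0.31. Of 18 brown adipocyte markers 1 rose and 13 fell, with Ucp1 (the uncoupling protein) at -4.05 ± 0.44, Kng2 at -3.93 ± 0.11 and Cox7a1 at -3.29 ± 0.40, and among 15 genes selective for white fat there were 12 that rose and 0 that fell, with Retn (resistin) at 3.92 ± 0.12. At 6 weeks, where 9.18% of all genes were called higher and 7.01% lower, 10 general adipocyte markers rose and 0 fell. Of the brown adipocyte markers 2 rose and 3 fell, and of the genes selective for white fat 9 rose and 0 fell. Ucp1 was 0.13 ± 0.44 at that age and Cidea, a lipid droplet protein, -0.0036 ± 0.139. The Cidea ratios split by dye there, with -1.19, -0.935, 0.98 and 1.13 on replicates 1 to 4. The part of these shifts in the Car3 ratio was not tested. The marker lists were chosen with earlier results of these data known, so their counts are a description and support nothing.

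**Figure D2:**
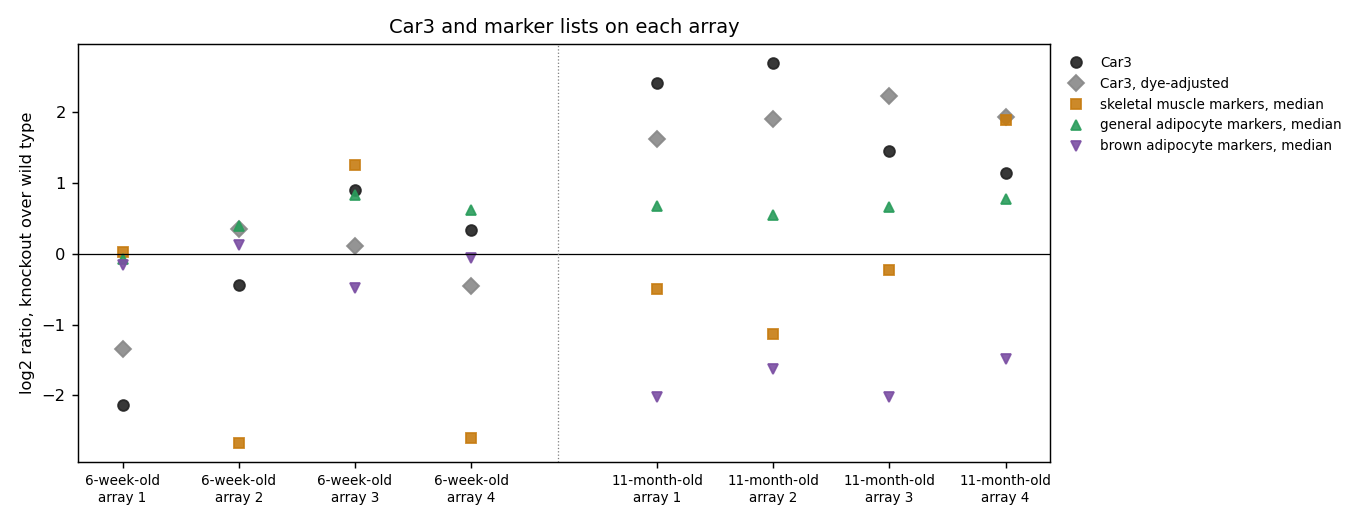
Log2 ratio of knockout over wild type on each of the 8 arrays for Car3, as measured and dye-adjusted, beside the median of the skeletal muscle, general adipocyte and brown adipocyte markers. Car3 is above zero on all 4 arrays at 11 months, while the muscle median is below zero on 3 of them and 1.90 on replicate 4.

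Car13, another cytosolic enzyme, changed at the older age. Its ratios were 0.23, 0.16, -0.087 and -0.18 at 6 weeks, scattered about zero, and -0.52, -0.75, -0.58 and -1.34 at 11 months. The fit gave 0.03 ± 0.14 at 6 weeks. At 11 months Car13 fell by 0.80 ± 0.14, 1.74-fold, with an adjusted p of 0.00371, and was -0.56 (adjusted p = 0.0606) when arrays were centred on their medians in place of loess. The age difference of -0.83 ± 0.20 passed (adjusted p = 0.0275). It was not past the threshold under median centring (-0.79, adjusted p = 0.144), without the 3 arrays of extreme muscle signal (-0.66, adjusted p = 0.0768), or without replicate 1, 2 or 3 at 6 weeks or replicate 2 at 11 months (adjusted p 0.0525 to 0.0806).

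Car13, Car1, Car3 and Car2 follow one another on chromosome 3, with a few pseudogene or noncoding entries and no other protein-coding gene between them in RefSeq. Their 11-month ratios were -0.80, 0.12, 1.93 and -1.60, of which that of Car1 did not pass. Car3 and Car2, which directly neighbour each other, moved in opposite directions and were on opposite sides of zero on all 4 arrays of that age. At 6 weeks the 4 genes stood at 0.03, -0.20, -0.33 and -1.15.

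Car4, the membrane-anchored enzyme known from capillary endothelium, had 2 probes. The brighter one gave -0.33, -0.081, -0.023 and -0.074 at 6 weeks and -0.056, -0.29, -0.42 and 0.013 at 11 months, close to zero throughout. Its fit was -0.13 ± 0.08 at 6 weeks and -0.19 ± 0.08 at 11 months (adjusted p = 0.127), and -0.29 (adjusted p = 0.0337) without 11-month replicate 4. The other Car4 probe gave 0.20 ± 0.17 and 0.11 ± 0.17, and the probes differed by 0.34 on average per array, so no direction was settled. Of 16 endothelial markers 3 rose, among them Plvap at 0.46 ± 0.07, and 0 fell at 11 months, beside 17.9% and 16.8% of all genes.

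Car8, which lacks catalytic activity, was near the detection limit in the knockout. Its brighter probe gave -0.27, -0.36, -0.39 and -0.58 at 6 weeks and -0.56, -0.19, -0.043 and -0.28 at 11 months, below zero on all 8 arrays. It stood well above background in 4 wild-type and 1 knockout arrays at 6 weeks and in 3 and 0 at 11 months. At the older age the knockout level was thus not well above background on any array. Its fold was taken from the mean of the wild type against the higher of each array's detection limit and the probe's own value. That gave 1.20-fold lower, the same as the limma fit (-0.27 ± 0.08, adjusted p = 0.0289), so it carries the error of that fit and is no minimum. By the same rule the other probe gave 1.21-fold lower at 11 months (adjusted p = 0.0364 over all kept probes, 33.8% of which were called). At 6 weeks it gave 1.35-fold, where 16.6% of probes were called. The 11-month call was lost without replicate 1 or 4 of that age (adjusted p 0.133 and 0.111), without the 3 arrays of extreme muscle signal (0.194), without a dye term (0.052) and with each age fitted alone (0.078). With the scanner software's own log ratio Car8 read -1.22 in place of -0.27.

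Car12 and Car9 are surface enzymes known to be induced by low oxygen, and Car6 is the secreted salivary enzyme. Car12 was well above background in 2 wild-type arrays and 0 knockout arrays at 11 months, and in 0 channels at 6 weeks. Its ratios were -0.21, -0.60, -0.04 and -0.30 at 11 months and 0.14, 0.09, 0.25 and 0.02 at 6 weeks. Car9 was well above background in 3 of 16 channels and Car6 in 1. All were too dim to be tested, so no fold is given for Car12, Car9 or Car6. Their ratios stayed between -0.60 and 0.31 on all arrays. Among 23 hypoxia-inducible genes 2 rose and 9 fell at 11 months, beside 17.9% of all genes called higher and 16.8% called lower at that age. At 6 weeks 5 rose and 1 fell, beside 9.18% and 7.01%. Those that fell at 11 months included Pgk1 (a glycolytic kinase) at -1.55 ± 0.13 and Ankrd37 at -1.06 ± 0.15. Egln3 was 0.74 ± 0.13 at 6 weeks and -0.96 ± 0.13 at 11 months. Of 6 measured epithelial and salivary gland markers 1 rose and 0 fell at 11 months (Amy1, 0.58 ± 0.09).

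**Figure D3:**
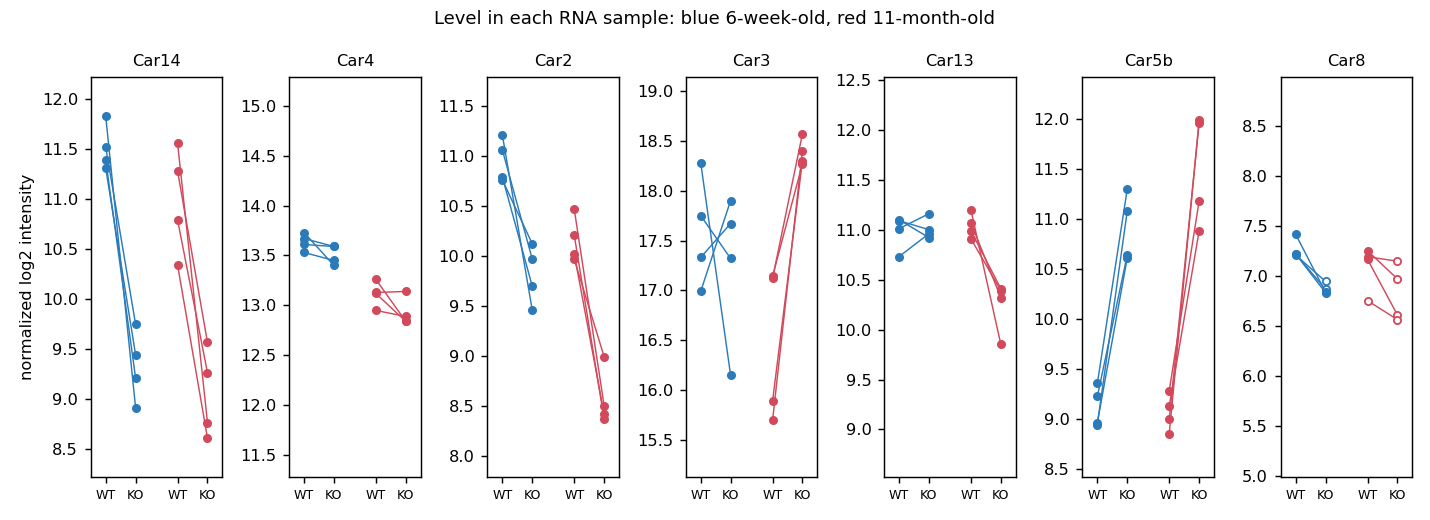
Normalized log2 intensity of each wild-type (WT) and knockout (KO) sample for the 7 tested members, lines joining samples of one array, blue for 6-week-old and red for 11-month-old, open points where the spot was not well above background. Each panel spans the same 4 log2 units. The genotypes do not overlap for Car14, Car2 and Car5b at both ages, for Car8 at 6 weeks, and for Car3 and Car13 at 11 months.

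Counted over the 7 tested members, 1 rose and 3 fell past an adjusted p of 0.05 at 6 weeks, beside 16.2% of all 21742 genes called there (9.18% higher, 7.01% lower), and since that contrast chose the family nothing is read from the count. At 11 months 2 rose (Car5b and Car3) and 4 fell (Car14, Car2, Car13 and Car8), Car4 did not pass, and 34.7% of all genes were called (17.9% higher, 16.8% lower). The members' ratios at 11 months ran from -1.94 to 2.44. Their median, -0.27, is the value of Car8, which was near the detection limit, and the median over all genes was 0.0082. For the difference between ages 1 member passed upward (Car3) and 1 downward (Car13), beside 18.2% of all genes (8.46% higher, 9.71% lower). The array ratios of the ages did not overlap for these same members, as for 19.5% of all genes. Ratios had one sign on all 4 arrays for 5 of the 7 members at 6 weeks (34.5% of all genes) and for 6 at 11 months (50.3%). Knockout and wild-type levels did not overlap for 4 members at 6 weeks (19.5% of all genes) and for 5 at 11 months (25.8%). Without the 3 arrays of extreme muscle signal 2 members were called at 6 weeks (Car2 not among them, -1.20, adjusted p = 0.114), 5 at 11 months and 0 for the difference. The members that passed the brightness filter are not all members, and the counts describe them only. Car8, counted among those that fell, passed that filter through its wild-type channels.

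By size of the 11-month ratio Car5b ranked 91st, Car14 192nd, Car3 198th and Car2 369th of 21742 genes. The genes whose dye-adjusted ratios over the 8 arrays lay nearest to those of Car14 were Gmpr, a guanosine monophosphate reductase (root mean square difference 0.46, with ratios of -2.30 at 6 weeks and -2.13 at 11 months), Cideb (0.60), St6galnac2 (0.63), Sytl1 (0.63) and the transcript ENSMUST00000068397 (0.63). Nearest to Car3 were Tmem43 (0.51, with -0.041 and 1.85), Papss2, which makes the sulfate donor of sulfotransferases (0.53), Tcaf1 (0.55), Slc5a6 (0.56) and Esyt1 (0.56).

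The 6 carbonic anhydrase genes outside the set were read too, and 4 were bright enough. Car7, a cytosolic enzyme, was -0.58 ± 0.09 at 6 weeks and fell by 0.72 ± 0.09 at 11 months (adjusted p = 0.000715), with ratios from -0.85 to -0.44 over the 8 arrays. Car11, which like Car8 lacks catalytic activity, was -0.48 ± 0.11 and fell by 0.59 ± 0.11 at the older age (adjusted p = 0.00424). Car15, a membrane-anchored enzyme, was -0.46 ± 0.12 and -0.33 ± 0.12, not past the threshold at 11 months (adjusted p = 0.066), though it passed with the scanner log ratio (-0.58) and the deposited values (-0.42). Car1, the red cell enzyme, was -0.20 ± 0.06 and 0.12 ± 0.06 (adjusted p = 0.173), a difference of 0.32 ± 0.09 between ages (adjusted p = 0.0384). That difference was past the threshold in 6 of 18 other settings, and not without 6-week replicate 2 or 3 or any one of the 11-month arrays (0.27 to 0.34, adjusted p 0.0694 to 0.102), nor without the 3 arrays of extreme muscle signal (0.33, adjusted p = 0.178). Car5a and Car10 were above background in 0 of 16 channels.

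Bicarbonate made by these enzymes crosses membranes through transporters, and 10 of 15 genes listed from the Slc4 and Slc26 families were measured. Whether each carries bicarbonate was not measured. At 11 months 2 rose (Slc4a7 and Slc4a11, the latter by 0.39 ± 0.08), 2 fell and 6 did not pass. The median was 0.00074, and 34.7% of all genes were called. Slc4a4, the electrogenic sodium bicarbonate cotransporter, had ratios of -1.83, -0.29, -1.42 and -1.51 at 6 weeks and -2.36, -2.84, -2.56 and -1.91 at 11 months, lower in the knockout on all 8 arrays. It fell by 1.26 ± 0.23 at 6 weeks (adjusted p = 0.0121, but 0.0731 with the scanner log ratio and 0.0615 under median centring) and by 2.42 ± 0.23, 5.34-fold, at 11 months (adjusted p = 0.000205). The age difference, -1.15 ± 0.32 (adjusted p = 0.0437), was past the threshold in 3 of 18 other settings. It was not without 6-week replicate 2, 3 or 4 or any one of the 11-month arrays (-1.28 to -0.84, adjusted p 0.056 to 0.117), nor without the 3 arrays of extreme muscle signal (-0.98, adjusted p = 0.0761). Slc4a8, a sodium-driven chloride bicarbonate exchanger, fell by 0.43 ± 0.08 at 11 months, and Slc4a7, another sodium bicarbonate cotransporter, rose by 0.48 ± 0.10 (0.37, adjusted p = 0.0615, without the 3 arrays of extreme muscle signal).

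Of 12 measured genes listed as proton and monocarboxylate transporters 5 rose and 2 fell at 11 months, beside 17.9% and 16.8% of all genes. The list also took in Aqp1, Bsg, Rhbg and Rhcg. Rhbg, among those that rose (0.27 ± 0.08, adjusted p = 0.0303), was well above background in 0 wild-type arrays at either age. In the knockout it was so in 1 array at 6 weeks and 3 at 11 months. It passed the brightness filter only through the knockout, so its call supports nothing. Hvcn1, the voltage-gated proton channel, rose by 1.51 ± 0.23 at 6 weeks (adjusted p = 0.00657) and by 1.32 ± 0.23 at 11 months (adjusted p = 0.00323). Slc16a7, a monocarboxylate transporter, was 0.03 ± 0.14 at 6 weeks and rose by 0.71 ± 0.14 at 11 months. Hvcn1 is also known from immune cells. Of 14 macrophage markers 9 rose and 0 fell at 11 months (17.9% and 16.8% of all genes), against 1 and 1 at 6 weeks (9.18% and 7.01%). Among them Cd14 was 0.90 ± 0.14 at 6 weeks and 1.05 ± 0.14 at 11 months. The part of immune cells in the Hvcn1 ratio was not tested.

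Enzymes that consume bicarbonate were all measured: of 9, 1 rose and 4 fell at 11 months (17.9% and 16.8% of all genes), and 3 rose and 2 fell at 6 weeks (9.18% and 7.01%). Pcx, the mitochondrial pyruvate carboxylase, had ratios of 1.27, 1.18, 1.19 and 0.96 at 6 weeks and 2.12, 2.06, 2.14 and 1.48 at 11 months, so it was higher in the knockout on all 8 arrays, as was Car5b. Pcx rose by 1.15 ± 0.12 and then by 1.95 ± 0.12 (adjusted p = 3.8e-05), and the ages differed by 0.80 ± 0.16 (adjusted p = 0.016), or 0.77 (adjusted p = 0.0541) without 11-month replicate 2 and 0.63 (adjusted p = 0.355) under median centring. Acacb, the mitochondrial acetyl-CoA carboxylase, rose by 0.60 ± 0.14 at 6 weeks and fell by 0.93 ± 0.14 at 11 months, a difference of -1.53 ± 0.20 (adjusted p = 0.00363). All 3 Acacb calls were lost under median centring (adjusted p 0.142, 0.0926 and 0.0841), and the 6-week call held in 12 of 19 settings. That call was lost without replicate 1, 2 or 3 of that age (0.51 to 0.63, adjusted p 0.0823 to 0.134), without the 3 arrays of extreme muscle signal (0.68, adjusted p = 0.0991), with the scanner log ratio (0.0627) and with the mean of all kept probes (0.0532). Pcca, a subunit of propionyl-CoA carboxylase, fell by 0.72 ± 0.10 at 11 months. At 6 weeks it was -0.41 ± 0.10, a call kept in 12 of 19 settings and lost without replicate 1, 3 or 4 (-0.46 to -0.29, adjusted p 0.0636 to 0.129), without the 3 arrays of extreme muscle signal (-0.59, adjusted p = 0.0793) and under median centring (-0.17, adjusted p = 0.521).

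**Figure D4:**
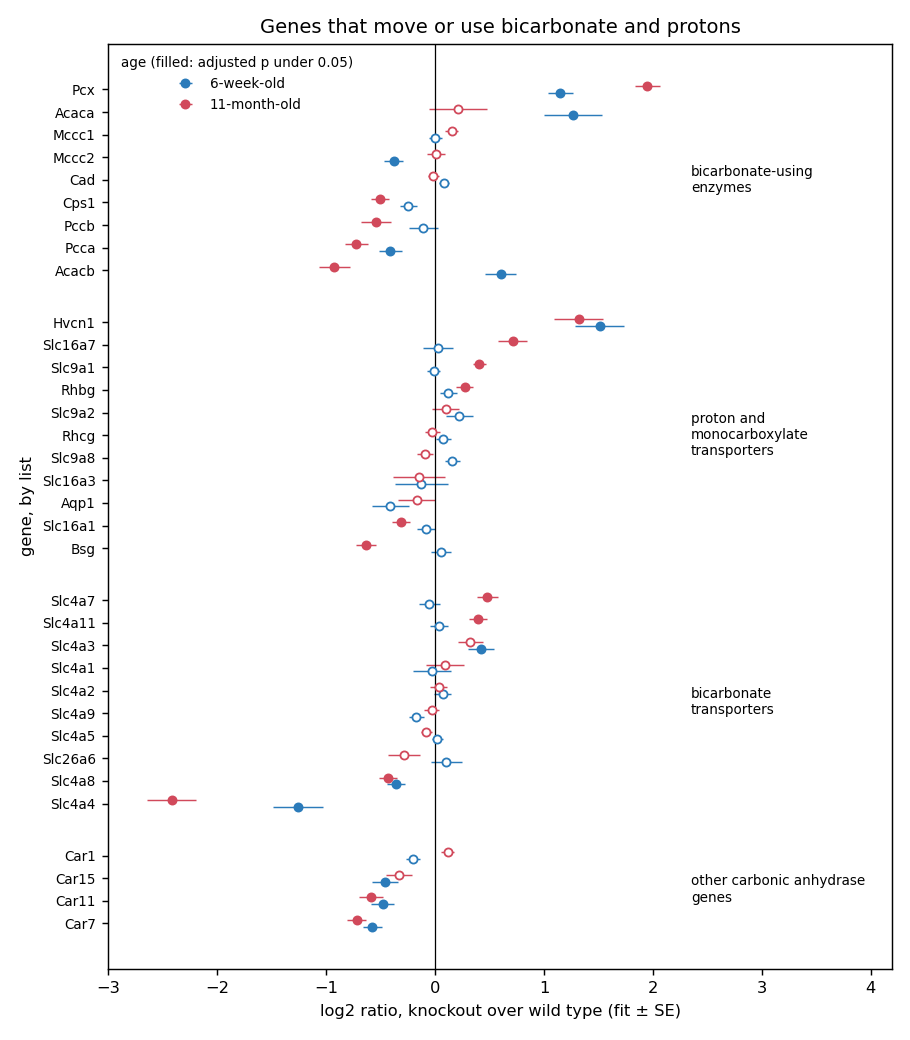
Fitted log2 ratio of knockout over wild type with its standard error for the other carbonic anhydrase genes, bicarbonate transporters, proton and monocarboxylate transporters and bicarbonate-using enzymes, blue at 6 weeks and red at 11 months, filled where the adjusted p was under 0.05, with 1 measured gene not shown. Slc4a4 lies farthest left, at -2.42 at 11 months, and Pcx farthest right, at 1.95.

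Nerve markers were read because Car2 is also known from glial cells. Of 12 measured, 1 rose and 3 fell at 11 months, beside 17.9% and 16.8% of all genes. Among them were Gldn at -2.56 ± 0.54, S100b at -2.37 ± 0.49 and Pmp22 at 1.64 ± 0.17. The median over all 12 was -0.021 at 11 months, while Car2 was -1.60. The part of any of these cells in the Car2 ratio was not tested.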

How the data were processed

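Two-colour Agilent arrays of Prdm16 knockout against wild-type brown adipose tissue (8 arrays) were read from the deposited scanner files. Their intensity values came from Agilent Feature Extraction 10.5.1.1 (6-week-old) and 10.10.1.1 (11-month-old), per the file headers, on the mm9 build. The scanner's own log10 ratio and the authors' deposited log2 value table were alternatives. The submitters' processing notes name limma. The sources used here do not say how the deposited table was scaled. Set against the scanner values, it ran as knockout over wild type on a log2 scale (slopes 1.03 to 1.32), with column medians of -0.05 to 0.084.

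Here intensities were background-corrected (normexp, offset 50) and loess-normalized within arrays, and 131 to 247 outlier spots per array were left out. A probe was kept when well above background in at least 4 of 16 channels, with values on 3 or more arrays per age. The brightest probe stood for a gene. limma 3.58.1 (R 4.3.3) fitted one coefficient per age and a shared dye term, leaving 5 residual degrees of freedom, with Benjamini-Hochberg adjustment over 21742 genes. Of these, 14810 were named by accession through RefSeq. The fit was tested on simulated data. Levels per sample came from between-array quantile scaling of average intensities. The labels call the arrays biological replicates.

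The members and 14 gene lists were chosen with earlier results of these data known. Genes named were all family probes, Prdm16, Ucp1, Cidea, Adipoq, Ckm, up to 3 called genes per list with the largest 11-month change (the 1 largest where none was called), and the 5 nearest genes by root mean square difference. Slc4a11, Rhbg, Rhcg, Aqp1 and Bsg are named besides, to show what their lists or counts hold. Alternatives covered background correction, normalization, filter, probe choice, dye term, fitting, replicate number and arrays left out. The result of 1 listed gene is not reported here.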

Additional observations from a re-analysis of the deposited data

Results flagged for a closer look

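Of 50 groups of 4 arrays checked, 5 held an array far from the other 3, where chance gives about 1 in 20. All 5 were at 11 months. Car14 was -2.80 on replicate 2. Slc4a8 was -0.27 on replicate 3. Pcx was 1.48 on replicate 4. Acacb was -0.64 on replicate 2. Ucp1 was -6.21 on replicate 3.

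The knockout-over-wild-type ratio differed between the ages past an adjusted p of 0.05 in limma for Car3 (2.26, 11 months minus 6 weeks), Car13 (-0.83) and Car1 (0.32). It did so as well for Slc4a4 (-1.15), Slc4a7 (0.54), Slc16a7 (0.69), Pcx (0.80) and Acacb (-1.53). Among the tissue markers named, the same held for Ucp1 (-4.18), Cidea (-2.16) and Adipoq (1.09). Each was past the threshold in 17 of 18 alternative settings: Ucp1 not without the 3 arrays of extreme muscle signal (-4.51, adjusted p = 0.0616), Cidea not without a dye term (0.0909) and Adipoq not under median centring (0.0862). Age and batch cannot be told apart in these differences. The calls for Slc4a7 and Slc16a7 held in 9 and 6 of 18 alternative settings.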

How the results depend on the processing

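No result changed direction past its threshold under the alternatives run. The 11-month calls of Car14, Car5b, Car2 and Car3 were kept in all 19 settings (Car14 -2.66 to -1.63, Car5b 2.26 to 2.92, Car2 -2.31 to -1.40, Car3 1.80 to 2.07), that of Car13 in 18 and that of Car8 in 14. With no filter the dim Car6, Car9 and Car12 were tested too, and 7 of 10 members were called at 11 months in place of 6 of 7. Of these 2 were higher and 5 lower, beside 7388 of all 31890 genes (3793 higher, 3595 lower). The added call was a fall in a dim gene, and nothing is read from it. Called members at 6 weeks numbered 2 without the 3 arrays of extreme muscle signal, in place of 4. For the age difference they numbered 1 under median centring, 1 without a dye term, 0 without those 3 arrays and 1 to 2 with single arrays left out, in place of 2. Over all genes the 6-week count of 3520 became 2278 with the scanner log ratio, 948 under median centring (664 higher, 284 lower, against 1995 and 1525), 801 without the 3 arrays and 1238 to 4278 with single arrays left out. The 11-month count of 7544 became 4912 under median centring (3480 higher, 1432 lower, against 3897 and 3647), 4871 without the 3 arrays and 5027 to 7643 with single arrays left out. The count for the difference, 3952, became 552, 2518 without a dye term, 689 and 2118 to 3225. The causes were not tested, and the settings with arrays left out also rest on fewer arrays. Median centring moved the median of all genes by under 0.1. Replicate numbers did not meet the bar for pairing: correlations of deviations were -0.199 to -0.053, with dye orientation opposed between same-numbered arrays, and -0.0602 to 0.0925 with dye taken out. With a replicate block 4186, 7744 and 4245 genes were called at 6 weeks, at 11 months and for the difference, Car5b passed for the difference (0.65, adjusted p = 0.0375) and Car15 at 11 months (-0.33, adjusted p = 0.021). Signal near background limits Car6, Car8, Car9 and Car12.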
